A study of Mus musculus with 11 samples.

Results

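The genes described here are 4 transcription factors of the NFAT family (Nfatc1, Nfatc2, Nfatc3 and Nfat5), 2 catalytic subunits of the phosphatase calcineurin (Ppp3ca and Ppp3cb) and Rcan1, which encodes a regulator of calcineurin. They were found on the array as the probe sets that the platform annotation assigns to exactly 1 of these symbols, which gave 29 of the 45037 probe sets tested. Nfatc2 and Nfat5 had 6 probe sets each, Nfatc1 and Ppp3cb 5 each, Ppp3ca 3, and Nfatc3 and Rcan1 2 each. Where a gene has several probe sets their median was used for it, and the 7 genes were read against all 18193 genes summarised in the same way.

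Engagement of the B cell receptor opens calcium stores and then calcium channels in the cell membrane. Calcium activates calcineurin, which removes phosphates from Nfatc1, Nfatc2 and Nfatc3 so that these factors enter the nucleus. Nfat5 shares their DNA-binding domain but lacks the calcineurin docking region and is known for the response to hypertonic stress. In lymphocytes Nfatc1 is also known as a target of NFAT itself, through an inducible promoter, and Rcan1 as a feedback inhibitor that NFAT induces.

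RNA of splenic B cells was hybridised to 11 Affymetrix Mouse Genome 430 2.0 arrays, on which a transcript is read by one or more sets of short probes. The cells came from female mice aged 6 weeks of the strains NOD (NOD/ShiLtJ), which develops autoimmune diabetes, and NR4 (NOD.NOR-Chr4/DvsJ), a congenic strain that carries NOR-derived chromosome 4 sequence on the NOD background. Each strain supplied 3 lots of 7 to 8 pooled spleens, so that an array reads a pool of animals, and B cells were enriched by magnetic removal of other cells. The 4 groups are NOD cells held for 2 h with 10 µg/ml of goat F(ab')2 fragments against mouse IgM (2 arrays), NOD cells held for 2 h in medium alone (3 arrays), NR4 cells with the same anti-IgM fragments (3 arrays) and NR4 cells in medium alone (3 arrays). None of the 7 genes lies on chromosome 4: Nfatc2 is on chromosome 2, Ppp3ca on 3, Nfatc3 and Nfat5 on 8, Ppp3cb on 14, Rcan1 on 16 and Nfatc1 on 18.

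All values are on a log2 scale, taken as such because the base is not written in the table, and the median of every probe set over the 11 arrays is 0. A value of 0.5 thus means 0.5 log2 units above the middle array, and neither the abundance of a transcript nor its presence can be read from it. A response is anti-IgM minus unstimulated, a strain difference is NOD minus NR4, and a gene is called where the Benjamini-Hochberg adjusted p of limma, two-sided and adjusted over all genes or all probe sets, was below 0.05. In these bulk samples a change in RNA per cell and a change in the mixture of cells cannot be told apart. Per the labels both cultures of a strain came from the same lots, while the limma fit treats the arrays as independent. Precision is limited by how few arrays there are.

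Averaged over the strains, anti-IgM raised Nfatc1 and lowered Ppp3ca, and the other 5 genes did not pass the test. The 2 of 7 genes called stand beside 1.56% of all genes called in this comparison, of which 0.715% were higher and 0.841% lower. The median response of the 7 genes was -0.09, beside 0.0034 over all genes. In both strains Nfatc1 lay above its unstimulated arrays without overlap, which held for 2.08% of all genes, and Ppp3ca and Ppp3cb lay below theirs without overlap, which held for 3.56%.

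**Figure D1:**
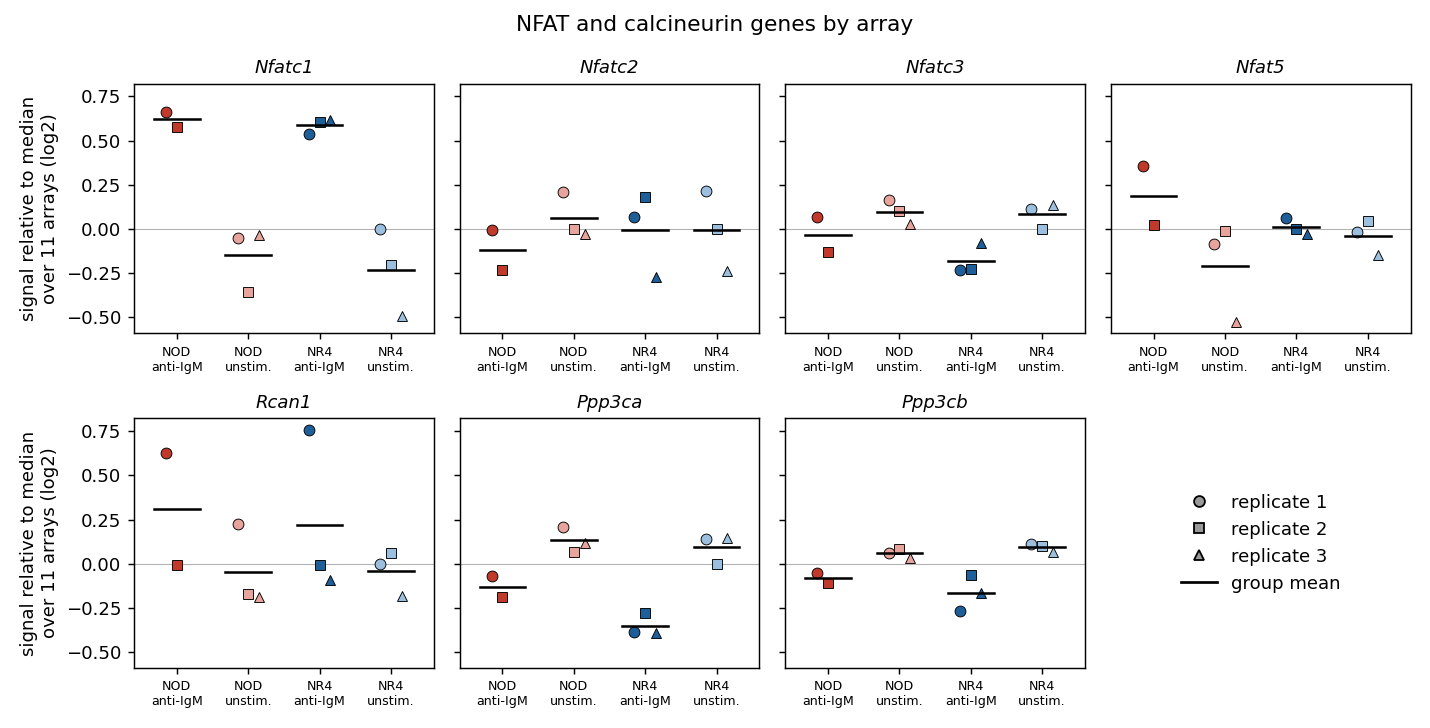
Values of the 7 genes on each array (vertical axis, log2 signal relative to the median over 11 arrays) in the 4 groups, with 1 symbol per replicate number and a bar at the group mean. Nfatc1 lies between 0.54 and 0.66 on the 5 anti-IgM arrays and at or below 0 on the 6 unstimulated ones, while Ppp3ca is below 0 on all anti-IgM arrays.

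Nfatc1 stood at 0.66 and 0.58 on the stimulated NOD arrays, against -0.05, -0.36 and -0.04 on the unstimulated NOD arrays. In NR4 it stood at 0.54, 0.60 and 0.62 with anti-IgM, against 0, -0.21 and -0.49 without. The 5 stimulated arrays thus fell within a narrow band above all 6 unstimulated arrays, whose own spread was wider. The averaged response was 0.79 log2 units (SE 0.10, 95% interval 0.57 to 1.02, limma adjusted p = 0.0051), or 1.73-fold higher, and was higher in all 5 stimulated arrays. With each array left out in turn the response was 0.73 to 0.85, and the adjusted p of limma stayed between 0.0054 and 0.034.

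The 5 probe sets of Nfatc1 did not respond alike. Set 1425761_a_at was at 0.90 and 0.87 in stimulated NOD cells, against 0, -0.36 and -0.33 in unstimulated NOD cells, and at 0.72, 0.60 and 0.64 in stimulated NR4 cells, against -0.16, -0.41 and -0.49 in unstimulated NR4 cells. Set 1447084_at was at 0.83 and 0.85 in stimulated NOD cells, against -0.48, -0.36 and 0 in unstimulated NOD cells, and at 0.69, 0.87 and 0.83 in stimulated NR4 cells, against -0.17, -0.06 and -0.58 in unstimulated NR4 cells. Both sets separated the cultures of each strain by more than the spread within any group. Set 1428479_at was at 0.09 and -0.06 in stimulated NOD cells, against 0.10, -0.09 and -0.02 in unstimulated NOD cells, and at 0.08, -0.06 and 0.07 in stimulated NR4 cells, against 0.09, -0.21 and 0 in unstimulated NR4 cells. On that set the cultures overlapped in both strains.

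The averaged responses were 1.09 (SE 0.12, limma adjusted p = 0.0050) for 1447084_at, 1.06 (SE 0.10, limma adjusted p = 0.0015) for 1425761_a_at and 0.92 (SE 0.13, limma adjusted p = 0.014) for 1447085_s_at. Set 1417621_at rose by 0.55 (SE 0.09, limma adjusted p = 0.025), and 1428479_at differed by 0.04 (SE 0.09, 95% interval -0.15 to 0.23, limma adjusted p = 0.96). With single arrays left out, 1417621_at kept its call without unstimulated NR4 array 3 or stimulated NR4 arrays 1 or 2 and lost it without any of the other 8 (responses of 0.53 to 0.59, limma adjusted p up to 0.13). Set 1447085_s_at lost its call without unstimulated NOD array 2 or either stimulated NOD array (limma adjusted p of 0.050 to 0.076). The response of 1425761_a_at exceeded that of 1428479_at by 1.02, and that of 1417621_at was 0.51 below that of 1425761_a_at (exact permutation of the culture labels within strain, two-sided, p = 0.005 for both, adjusted p = 0.0083 over the 10 pairs). The value 0.005 is the smallest that the 200 arrangements can give, and 7 of the 10 pairs of Nfatc1 probe sets passed. These arrangements treat the arrays of a strain as independent. Sets 1425761_a_at and 1447084_at differed by -0.03 (exact permutation p = 0.90). Which part of the transcript each set reads was not analysed here, nor was it tested whether the differences lie in the transcripts or in the probes.

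**Figure D2:**
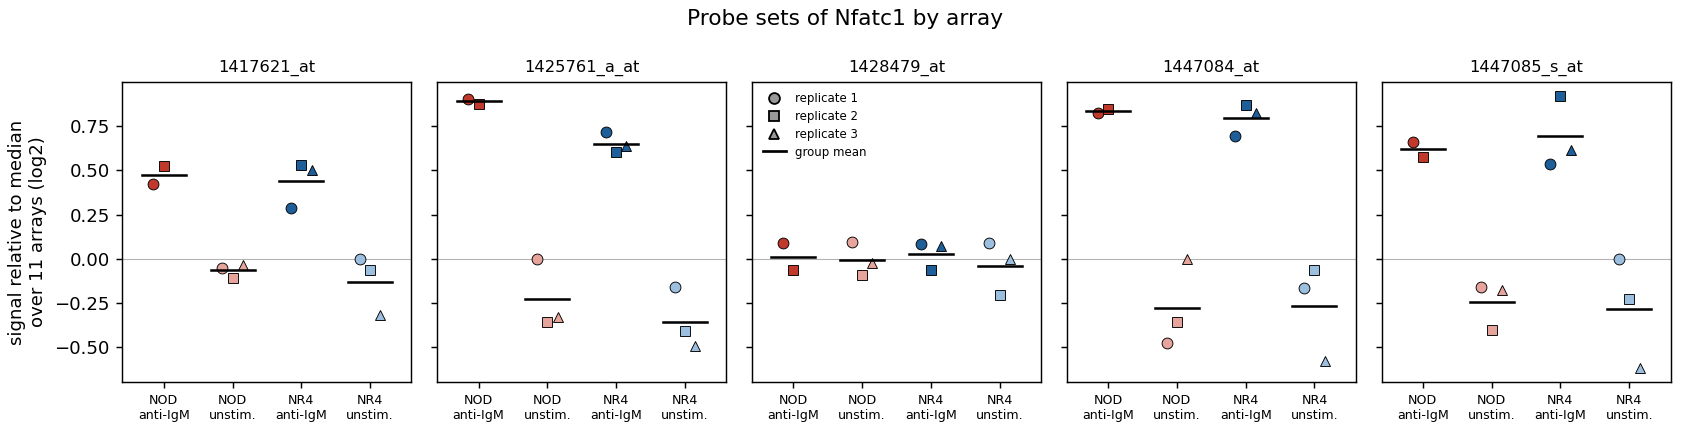
Values of the 5 Nfatc1 probe sets on each array (vertical axis, log2 signal relative to the median over 11 arrays) in the 4 groups, with a bar at the group mean. On 4 sets the stimulated arrays lie above the unstimulated ones of the same strain, and on 1428479_at they overlap.

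Within single strains the response of Nfatc1 was 0.77 in NOD (SE 0.15, 95% interval 0.43 to 1.10, limma adjusted p = 0.13) and 0.82 in NR4 (SE 0.13, 95% interval 0.52 to 1.12, limma adjusted p = 0.038). The response in NOD minus that in NR4 was -0.05 (95% interval -0.50 to 0.40, limma adjusted p = 1.0). In NOD no member was called by limma (0 of 7, with 3 at an unadjusted p below 0.05, beside 0.115% of all genes called). In NR4 Nfatc1 was the 1 member of 7 called, beside 0.412% of all genes, with 4 members at an unadjusted p below 0.05. The NR4 call of Nfatc1 was lost when any of 9 of the 11 arrays was left out, with responses between 0.69 and 0.94 over the 11. It was also lost after quantile normalization of the deposited, already centred values (0.73, limma adjusted p = 0.16). The lowest-numbered probe set likewise gave no call (0.57, limma adjusted p = 0.090).

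By the size of the differences over the 11 arrays, the 5 genes most like Nfatc1 were Mapk6, Gpr183, Plaur, Irf4 and Rilpl2. Predicted genes and clones, told by their names, were passed over. The root mean square differences from Nfatc1 were 0.145, 0.148, 0.162, 0.188 and 0.190 log2 units. Mapk6 is an atypical MAP kinase, Gpr183 the oxysterol receptor that guides B cells within lymphoid tissue, Plaur the urokinase receptor and Irf4 a transcription factor of B cell activation and plasma cell formation. Gpr183 was at 0.68 and 0.59 in stimulated NOD cells, against -0.08, -0.20 and -0.18 in unstimulated NOD cells, and at 0.32, 0.43 and 0.40 in stimulated NR4 cells, against -0.26, -0.27 and -0.51 in unstimulated NR4 cells. Irf4 was at 0.68 and 0.76 in stimulated NOD cells, against -0.15, -0.01 and -0.22 in unstimulated NOD cells, and at 0.54, 0.56 and 0.71 in stimulated NR4 cells, against -0.20, -0.06 and -0.15 in unstimulated NR4 cells. Since these genes were picked for values close to those of Nfatc1 on the same arrays, their averaged responses of 0.65 (Plaur) to 0.79 (Irf4) follow from the choice and are a description.

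The core that NFAT factors bind is GGAAA, read on either strand as GGAAA or TTTCC, and the longer form TGGAAA contains it. Promoters of 2 of the 5 genes are printed to show how differently they hold these letters, with each GGAAA or TTTCC in capitals. They were chosen after their values and matches had been seen, and come from RefSeq on build GRCm38.p6, as 250 bases before to 50 after the annotated start. That of Irf4 lies at chr13:30748983-30749282 on the plus strand, and that of Rilpl2 at chr5:124478186-124478485 on the minus strand.
Irf4: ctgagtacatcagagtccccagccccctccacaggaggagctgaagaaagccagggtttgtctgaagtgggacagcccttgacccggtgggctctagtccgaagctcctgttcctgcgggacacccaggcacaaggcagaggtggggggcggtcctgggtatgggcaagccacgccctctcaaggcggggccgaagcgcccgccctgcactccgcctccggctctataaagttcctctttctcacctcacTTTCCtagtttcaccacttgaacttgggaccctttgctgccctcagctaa
Rilpl2: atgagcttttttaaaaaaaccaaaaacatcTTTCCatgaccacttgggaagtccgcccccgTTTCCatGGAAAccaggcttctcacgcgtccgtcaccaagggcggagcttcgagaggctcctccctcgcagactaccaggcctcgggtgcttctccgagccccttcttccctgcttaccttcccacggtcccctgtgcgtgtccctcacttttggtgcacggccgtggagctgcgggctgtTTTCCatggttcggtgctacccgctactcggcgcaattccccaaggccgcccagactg
The Irf4 window holds 1 match, as do those of Gpr183 and Plaur and 1 of the 2 windows of Mapk6, and at least 1 match is found in 61.3% of all 32851 promoters of the table. The Rilpl2 window holds 4 matches, all 4 in the longer form, against 2.65% of promoters with at least 4 of the core and 0.0244%, or 8 promoters, with at least 4 of the longer form. A match describes the letters and is not a measured site. A promoter of Nfatc1 or Ppp3ca was not used here.

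Nfatc2, known as the NFAT form already present in resting lymphocytes, stood at -0.01 and -0.23 in stimulated NOD cells, against 0.21, 0 and -0.03 in unstimulated NOD cells. In NR4 it stood at 0.07, 0.18 and -0.27 with anti-IgM, against 0.22, 0 and -0.23 without. The cultures overlapped in both strains, and the averaged response of -0.09 had an interval of -0.34 to 0.16 (95%, limma adjusted p = 0.92). Its 6 probe sets had averaged responses between -0.24 and 0.19, of which none reached an unadjusted p below 0.05 by limma. Their arrays spread most on 1439205_at, which stood at -0.70 on stimulated NR4 array 3 and -1.12 on unstimulated NR4 array 3, while its other 9 values lay between -0.20 and 0.38.

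Nfatc3, another calcium-regulated form, stood at 0.07 and -0.13 in stimulated NOD cells, against 0.16, 0.10 and 0.03 in unstimulated NOD cells. NR4 cells had -0.23, -0.23 and -0.08 with anti-IgM, against 0.11, 0 and 0.14 without. The cultures overlapped in NOD and were apart in NR4, where the stimulated arrays were the lower ones. The share of all genes apart in NR4 alone was not determined, so this separation is a description. The averaged response was -0.20 (SE 0.07, limma adjusted p = 0.27), with -0.23 on 1452497_a_at and -0.16 on 1419976_s_at, its 2 probe sets. On 1419976_s_at the stimulated arrays were lower without overlap in both strains, which held for 3.22% of all probe sets. That set had an unadjusted p of 0.041 and an adjusted p of 0.43 by limma. On 1452497_a_at the NOD cultures overlapped.

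Nfat5 stood at 0.36 and 0.02 in stimulated NOD cells, against -0.08, -0.01 and -0.52 in unstimulated NOD cells. NR4 cells had 0.06, 0 and -0.03 with anti-IgM, against -0.02, 0.04 and -0.15 without. The NR4 cultures overlapped, and in NOD both stimulated arrays were above the unstimulated ones, of which replicate 3 was lowest. The share of all genes apart in NOD alone was not determined either. The response was 0.40 in NOD (SE 0.16, unadjusted p = 0.033, limma adjusted p = 0.85) and 0.05 in NR4 (SE 0.14, limma adjusted p = 0.95), and the difference of 0.34 between these responses had an interval of -0.13 to 0.82. The NOD response was 0.24 without unstimulated NOD array 3 and 0.23 without stimulated NOD array 1.

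The 6 probe sets of Nfat5 fell on both sides of 0, between -0.13 and 0.65. Set 1439328_at was at 0.43 and 0.59 in stimulated NOD cells, against -0.11, -0.35 and -1.03 in unstimulated NOD cells, and at 0.66, 0.22 and -0.06 in stimulated NR4 cells, against -0.09, 0 and 0.02 in unstimulated NR4 cells. On this set the NOD cultures were apart, for which the share of all probe sets was not determined, and the NR4 cultures overlapped. Its averaged response of 0.65 (SE 0.18, limma adjusted p = 0.15) and its response of 1.00 in NOD (limma adjusted p = 0.49) did not pass the test, nor did 0.50 on 1439805_at (SE 0.20, limma adjusted p = 0.39). No pair of Nfat5 probe sets differed after adjustment over its 15 pairs, where the smallest exact permutation p was 0.005.

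Ppp3ca and Ppp3cb encode the alpha and beta catalytic subunits of calcineurin. Ppp3ca stood at -0.07 and -0.19 in stimulated NOD cells, against 0.21, 0.07 and 0.12 in unstimulated NOD cells. In NR4 it stood at -0.38, -0.28 and -0.39 with anti-IgM, against 0.14, 0 and 0.15 without. The cultures of each strain were apart, with the stimulated NR4 arrays lowest of all. The averaged response was -0.35 (SE 0.07, 95% interval -0.50 to -0.21, limma adjusted p = 0.027), or 1.28-fold lower.

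The call of Ppp3ca was lost when any of 9 of the 11 arrays was left out (limma adjusted p between 0.051 and 0.15) and was kept without unstimulated NR4 array 2 or stimulated NR4 array 2, while the response stayed between -0.38 and -0.32. Within strains the response was -0.26 in NOD (SE 0.10, limma adjusted p = 0.76) and -0.45 in NR4 (SE 0.09, limma adjusted p = 0.070). With the replicate number as a block the NR4 response of -0.45 was called (limma adjusted p = 0.048). Of its 3 probe sets, 1426401_at was at -0.07 and -0.30 in stimulated NOD cells, against 0.12, 0.13 and 0.12 in unstimulated NOD cells, and at -0.38, -0.34 and -0.42 in stimulated NR4 cells, against 0.15, 0 and 0.15 in unstimulated NR4 cells. That set fell by 0.39 (SE 0.08, limma adjusted p = 0.042), and was not called when any 1 array was left out (responses of -0.45 to -0.34, limma adjusted p of 0.056 to 0.21), nor after quantile normalization (-0.37, limma adjusted p = 0.067). The other sets, 1452056_s_at and 1438478_a_at, had responses of -0.41 (limma adjusted p = 0.14) and -0.21 (limma adjusted p = 0.58).

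Ppp3cb stood at -0.05 and -0.11 in stimulated NOD cells, against 0.06, 0.08 and 0.04 in unstimulated NOD cells. NR4 cells had -0.27, -0.06 and -0.16 with anti-IgM, against 0.11, 0.10 and 0.07 without. The stimulated arrays were the lower ones in both strains, without overlap. The averaged response of -0.20 (SE 0.06, 95% interval -0.34 to -0.06) had an unadjusted p of 0.0091 and a limma adjusted p of 0.19. Its 5 probe sets had averaged responses between -0.55 and -0.02. Set 1427468_at, with -0.55 (SE 0.17, limma adjusted p = 0.20), was at -0.08 and -0.19 in stimulated NOD cells, against 0.26, 0.43 and 0.32 in unstimulated NOD cells, and at -0.83, 0 and -0.25 in stimulated NR4 cells, against 0.50, 0.45 and -0.14 in unstimulated NR4 cells.

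The genes most like Ppp3ca over the 11 arrays, chosen in the same way as for Nfatc1, were Pacc1, Cyb5a, Senp6, Tsc22d3 and Rac2. Root mean square differences were 0.068, 0.068, 0.072, 0.074 and 0.080. Pacc1 encodes a proton-activated chloride channel, Cyb5a a cytochrome b5, Senp6 a SUMO protease, Tsc22d3 a leucine zipper protein induced by glucocorticoids and Rac2 a small GTPase of blood cells. Their averaged responses, between -0.38 (Pacc1) and -0.29, likewise follow from the choice.

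Rcan1 is transcribed from more than one start. An inner start inside the gene is known in mouse and human for a shorter transcript that NFAT induces through clustered sites. Both RefSeq promoters are printed, on build GRCm38.p6 and the minus strand, with GGAAA or TTTCC in capitals. The upstream one lies at chr16:92466120-92466419 and the inner one at chr16:92400029-92400328.
Rcan1 upstream start: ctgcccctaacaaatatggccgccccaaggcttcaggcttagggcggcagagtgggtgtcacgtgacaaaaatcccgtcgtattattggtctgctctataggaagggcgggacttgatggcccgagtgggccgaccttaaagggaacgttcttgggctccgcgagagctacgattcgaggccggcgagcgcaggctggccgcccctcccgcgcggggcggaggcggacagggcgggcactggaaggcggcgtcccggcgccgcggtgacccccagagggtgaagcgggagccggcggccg
Rcan1 inner start: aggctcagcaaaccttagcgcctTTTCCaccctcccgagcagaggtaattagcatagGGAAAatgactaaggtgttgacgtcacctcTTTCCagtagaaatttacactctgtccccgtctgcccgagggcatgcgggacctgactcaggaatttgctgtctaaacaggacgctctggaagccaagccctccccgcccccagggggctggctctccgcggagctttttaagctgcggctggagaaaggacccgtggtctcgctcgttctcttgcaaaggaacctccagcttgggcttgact
The upstream window holds 0 matches, and the inner window holds 3, of which 2 are in the longer form. At least 3 matches of the core are found in 9.42% of all promoters, and at least 2 of the longer form in 3.03%. No match in a window says only that these letters are not there. Of the other members with a promoter in the table, Ppp3cb had 4 matches, Nfat5 2, Nfatc2 3 and 1 in its 2 windows and Nfatc3 1 and 0.

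Rcan1 stood at 0.63 and -0.01 in stimulated NOD cells, against 0.22, -0.17 and -0.19 in unstimulated NOD cells. In NR4 it stood at 0.76, -0.01 and -0.09 with anti-IgM, against 0, 0.06 and -0.18 without. The cultures overlapped in both strains, and the replicate 1 arrays of the stimulated cells were the 2 high ones. The averaged response of 0.31 (SE 0.18, 95% interval -0.09 to 0.70, limma adjusted p = 0.64) did not pass the test, and was 0.15 without stimulated NOD array 1 and 0.17 without stimulated NR4 array 1. Set 1416600_a_at was at 0.42 and 0.02 in stimulated NOD cells, against 0.10, -0.32 and -0.29 in unstimulated NOD cells, and at 1.26, -0.02 and 0.05 in stimulated NR4 cells, against 0, -0.07 and -0.35 in unstimulated NR4 cells. Set 1416601_a_at was at 0.84 and -0.03 in stimulated NOD cells, against 0.35, -0.02 and -0.09 in unstimulated NOD cells, and at 0.26, 0.01 and -0.24 in stimulated NR4 cells, against 0, 0.20 and -0.01 in unstimulated NR4 cells. The high array thus differed between the sets, with NR4 replicate 1 highest on the first and NOD replicate 1 on the second.

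Over all 29 probe sets, 4 rose and 1 fell in the averaged response and 24 were not called by limma, with 11 at an unadjusted p below 0.05, while 1.01% of all probe sets were called. In NOD 1 of 29 was called (1425761_a_at of Nfatc1, by 1.12, limma adjusted p = 0.041), beside 0.0444% of all probe sets, and was not called when any 1 array was left out. In NR4 2 of 29 were called (1425761_a_at by 1.01, limma adjusted p = 0.021, and 1447084_at by 1.06, limma adjusted p = 0.042), beside 0.167%. With single arrays left out, 1425761_a_at lost its NR4 call in 6 of 11 cases and 1447084_at in 10 of 11. All these calls within single strains were lost after quantile normalization.

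**Figure D3:**
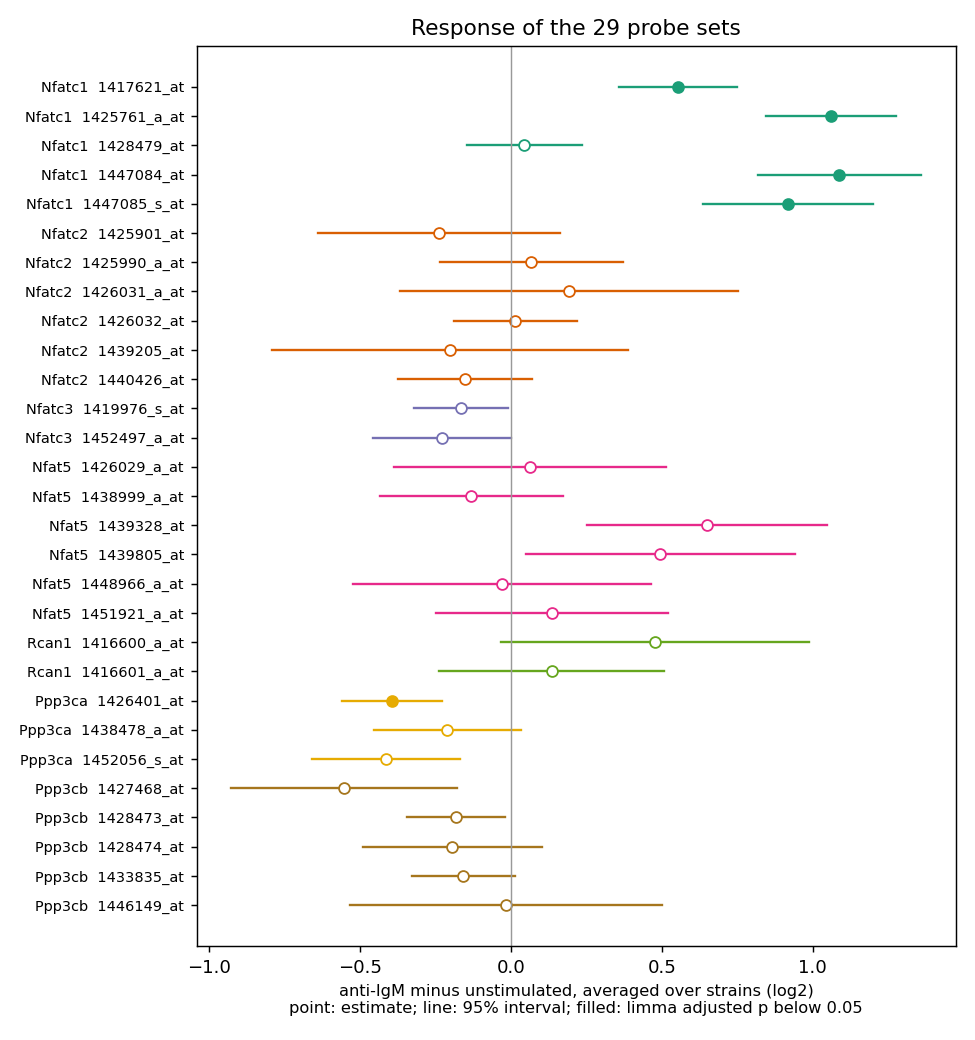
Averaged response of the 29 probe sets (horizontal axis, anti-IgM minus unstimulated in log2 units) with 95% intervals, grouped by gene, where filled points have a limma adjusted p below 0.05. The 4 filled points on the right belong to Nfatc1, and the filled point on the left is 1426401_at of Ppp3ca.

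The responses of the genes were also set against each other. Of 21 pairs, 15 differed after adjustment over the 21 pairs (exact permutation of culture labels within strain, two-sided, threshold 0.05). The response of Nfatc1 exceeded that of Ppp3ca by 1.15, of Ppp3cb and of Nfatc3 by 0.99 each and of Nfatc2 by 0.88 (exact permutation p = 0.005 each, adjusted p = 0.013). It exceeded that of Nfat5 by 0.57 (exact permutation p = 0.02, adjusted p = 0.032), and that of Rcan1 by 0.49, which did not pass (exact permutation p = 0.055, adjusted p = 0.072). The response of Ppp3ca lay 0.15 log2 units below that of Ppp3cb, as a difference of -0.15 (exact permutation p = 0.015, adjusted p = 0.029). That order holds for the medians over probe sets and not for every set. Set 1427468_at of Ppp3cb had -0.55, below the -0.41, -0.39 and -0.21 of the Ppp3ca sets. The other Ppp3cb sets had -0.19, -0.18, -0.16 and -0.02. The permutation tests do not use the pairing of arrays by replicate number. Swapping the culture labels only within the 5 same-numbered pairs allows 32 arrangements and no exact permutation p below 0.0625, so that no pair of genes or probe sets can pass that way. Of the 15 gene pairs 14 reached this smallest value, as did all 7 pairs of Nfatc1 probe sets. Different genes are read by different probes. Whether these differences lie in the transcripts or in the probes was not tested.

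Strain was the second comparison. No member was called by limma in the averaged strain difference (0 of 7, 0 at an unadjusted p below 0.05), beside 0.121% of all genes, and the 7 differences lay between -0.02 and 0.13. In unstimulated cells 0 of 7 were called, with 0 at an unadjusted p below 0.05, beside 0.0605% of all genes. In anti-IgM cells 0 of 7 were called, with 1 at an unadjusted p below 0.05, beside 0.0495% of all genes. That gene was Ppp3ca, which was -0.07 and -0.19 in stimulated NOD cells, against -0.38, -0.28 and -0.39 in stimulated NR4 cells, a difference of 0.22 (SE 0.10, unadjusted p = 0.047, limma adjusted p = 1.0). Of the 29 probe sets, 0 were called and 0 had an unadjusted p below 0.05 in any of these 3 comparisons, beside 0.118% of all probe sets in the averaged difference, 0.0577% in unstimulated cells and 0.0377% in anti-IgM cells.

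The third comparison asks whether the response differs between the strains. Limma called 0 of 7 genes and 0 of 29 probe sets, with 0 of either at an unadjusted p below 0.05, and called 0% of all genes and 0% of all probe sets. The responses in NOD minus those in NR4 lay between -0.18 (Nfatc2) and 0.34 (Nfat5), and the widest interval was that of Rcan1, with -0.70 to 0.89 around 0.09.

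**Figure D4:**
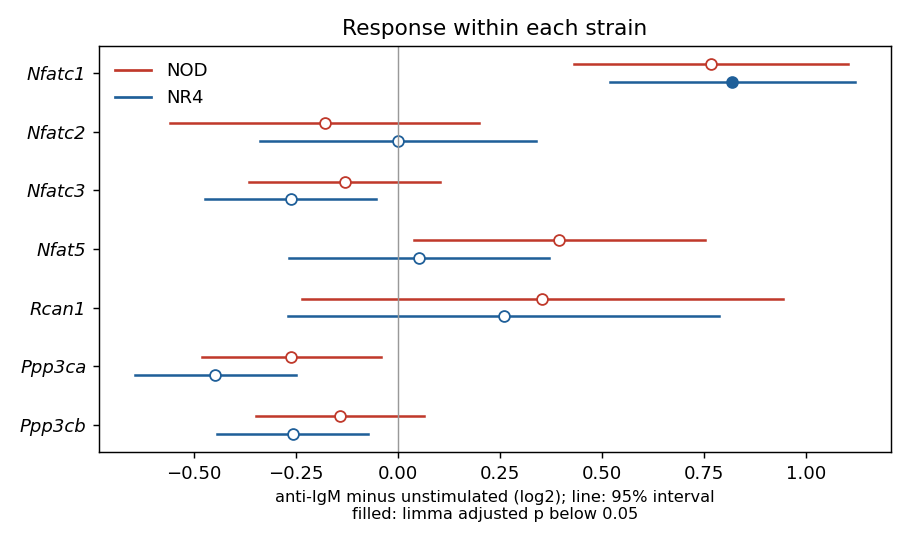
Response of each gene in NOD and in NR4 (horizontal axis, anti-IgM minus unstimulated in log2 units) with 95% intervals, where the filled point has a limma adjusted p below 0.05. The intervals of the strains overlap for all 7 genes, and the filled point is Nfatc1 in NR4.

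Around these members, the pathway was read through 5 further lists holding 70 measured genes. Of all genes 1.56% were called in the averaged response. Of 11 measured genes among the other NFAT and calcineurin genes, 0 were called by limma in the averaged response, 2 had an unadjusted p below 0.05, and the median was -0.04. The closest were Ppp3cc, the gamma catalytic subunit, with -0.35 (limma adjusted p = 0.18), and Fkbp1a, the FK506-binding protein, with 0.14 (limma adjusted p = 0.40). Ppp3cc was at 0.08 and -0.38 in stimulated NOD cells, against 0.11, 0.10 and 0.09 in unstimulated NOD cells, and at -0.25, -0.52 and -0.29 in stimulated NR4 cells, against 0.14, -0.12 and 0.27 in unstimulated NR4 cells. Of 18 measured genes of calcium release and entry, 0 were called by limma, 7 had an unadjusted p below 0.05 and the median was 0.00057. The closest were the calcium pump Atp2b4, with 0.49 (limma adjusted p = 0.11), and Saraf, an inhibitor of store-operated entry, with 0.23 (limma adjusted p = 0.15).

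Of 11 genes for NFAT kinases and nuclear transport, 0 rose and 2 fell, beside 0.715% of all genes higher and 0.841% lower. The list median was -0.0046. Lrrk2, a kinase described as a negative regulator of NFAT through the noncoding RNA repressor complex, was at -0.70 and -0.92 in stimulated NOD cells, against 0.58, 0.60 and 0.23 in unstimulated NOD cells, and at -2.07, -2.10 and -1.57 in stimulated NR4 cells, against 0.53, 0 and 0.17 in unstimulated NR4 cells. It fell by 1.71 (SE 0.14, limma adjusted p = 0.00042) averaged over the strains. Its response was -1.28 in NOD, where it was not called, and -2.15 in NR4, where it was. The difference of 0.87 between these responses was not called. Xpo1, the exportin that carries NFAT out of the nucleus, fell by 0.31 (SE 0.06, limma adjusted p = 0.027), a call kept without stimulated NR4 array 1 or 2 and lost without any of the other 9 (limma adjusted p up to 0.14).

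Of 21 genes described as NFAT targets in lymphocytes, 7 rose and 0 fell, beside 0.715% of all genes higher and 0.841% lower. The median response was 0.40, beside 0.0034 over all genes. This list was chosen with earlier results of these data known, so its counts and median are a description and not a test. The transcription factor Egr2 was at 0.99 and 1.14 in stimulated NOD cells, against -0.11, -0.29 and -0.05 in unstimulated NOD cells, and at 1.20, 1.08 and 1.15 in stimulated NR4 cells, against -0.01, -0.06 and -0.11 in unstimulated NR4 cells. It rose by 1.21 (SE 0.07, limma adjusted p = 7.1e-05). The chemokine genes Ccl4 and Ccl3 rose by 1.73 each (limma adjusted p = 0.00036 and 0.0089), the cytokine gene Il10 by 1.57 (limma adjusted p = 0.00042), the nuclear receptor Nr4a1 by 1.43 (limma adjusted p = 0.0082) and Irf4 by 0.79 (limma adjusted p = 0.00064). The seventh was Cd5, a negative regulator of antigen receptor signalling, with a response of 0.95 (limma adjusted p = 0.025). The call of Cd5 was kept without unstimulated NOD array 1, unstimulated NR4 array 1 or stimulated NR4 array 2 and lost without any of the other 8 (limma adjusted p up to 0.11). That of Ccl3 was lost without stimulated NOD array 2 (limma adjusted p = 0.056). With the lowest-numbered probe set in place of the median, Irf4 had a response of 0.30 and was not called (limma adjusted p = 0.071). In NOD and in NR4 4 of the 21 rose, which in each strain were Egr2, Ccl4, Il10 and Irf4. Of all genes 0.115% were called in NOD and 0.412% in NR4. Quantile normalization ended the NOD calls of Ccl4 (limma adjusted p = 0.062), Il10 (0.062) and Irf4 (0.056) and the NR4 calls of Ccl4 (0.056) and Irf4 (0.065). The lowest-numbered probe set ended those of Irf4 in NOD (limma adjusted p = 0.70) and NR4 (0.26). With single arrays left out, the NOD calls were lost in 6 of 11 cases for Il10, 5 for Irf4, 3 for Ccl4 and 1 for Egr2, and in NR4 that of Irf4 was lost in 1.

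Of 9 measured genes described as NFAT5 targets under osmotic stress, 1 rose and 0 fell, beside 0.715% of all genes higher and 0.841% lower. Their median was 0.08. Slc5a3, the myo-inositol transporter, was at 0.48 and 0.39 in stimulated NOD cells, against 0, -0.07 and -0.19 in unstimulated NOD cells, and at 0.36, 0.43 and 0.65 in stimulated NR4 cells, against -0.28, 0 and -0.25 in unstimulated NR4 cells. It rose by 0.59 (SE 0.08, limma adjusted p = 0.0097), and with the lowest-numbered probe set it had 0.40 (limma adjusted p = 0.19). In the strain differences and in the difference of responses, limma called 0 of the 70 genes, with 9 at an unadjusted p below 0.05 in the averaged strain difference, 3 in unstimulated cells, 5 in anti-IgM cells and 2 in the difference of responses.

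**Figure D5:**
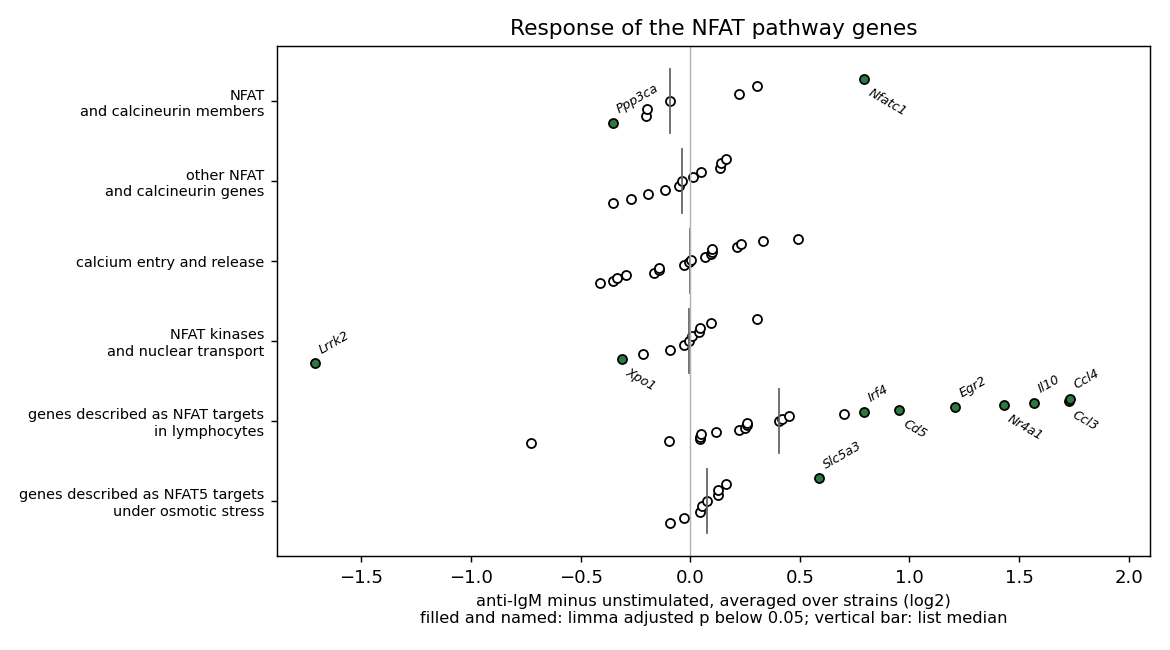
Averaged response (horizontal axis, anti-IgM minus unstimulated in log2 units) of the 7 genes and of the 5 further lists, with 1 point per gene, a vertical bar at the list median, and filled and named points where the limma adjusted p was below 0.05. The named points lie in 4 rows, with 7 to the right among the genes described as NFAT targets and Lrrk2 farthest to the left.

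Because levels were removed by the centring, the labelled cell type could not be checked by the presence of its markers, only by their differences. Of 11 measured B cell markers, 5 fell and 0 rose in the averaged response, beside 0.841% of all genes lower and 0.715% higher. Their median response was -0.41. The median of these markers on an array lay between -0.35 and -0.06 in stimulated NOD cells, against 0.11 to 0.15 in unstimulated NOD cells. In NR4 it lay between -0.43 and -0.20 in stimulated cells, against -0.07 to 0.24 in unstimulated cells. The B cell markers moved in the same direction as Ppp3ca, and their part in its result was not tested. T cell, NK, neutrophil and erythroid or platelet markers had 0 calls in the averaged response by limma, with 1 gene, a T cell marker, at an unadjusted p below 0.05. Of 12 myeloid markers 1 rose, beside 0.715% of all genes, and of 7 stromal and endothelial markers 1 fell, beside 0.841%. In the averaged strain difference 0 of the 62 markers were called by limma, with 10 at an unadjusted p below 0.05. Of these, 6 were among the 11 measured T cell markers, whose strain differences went both ways, between -0.72 and 1.02. The part of such cells in the strain differences of the members was not tested. The 3' minus 5' signal of the Gapdh and Actb control probe sets, a sign of RNA integrity and likewise centred, moved with the culture in NOD, at 0.21 and 0.13 in stimulated cells, against -0.01, -0.04 and -0.08 in unstimulated cells. In NR4 it was 0.96, 0.04 and 0.23 in stimulated cells, against -0.05, -0.07 and 0.29 in unstimulated cells. The NOD cultures were apart, the NR4 cultures overlapped and stimulated NR4 array 1 was the highest of all. The part of this signal in the responses was not tested across arrays. Without stimulated NR4 array 1, Nfatc1 had an averaged response of 0.80 (limma adjusted p = 0.013) and Ppp3ca -0.35 (limma adjusted p = 0.051). That array also held the highest value of Rcan1 (0.76) and the lowest of Ppp3cb (-0.27). Without it the averaged response of Rcan1 was 0.17.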

How the data were processed

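Per the submitters' processing notes the arrays were processed with RMA. The deposited table holds log2 values made by the authors (the base is not stated and was taken as 2), for 45101 probe sets that each have a median of 0 over the 11 arrays, a centring the labels do not mention. No depth exists for arrays. The 64 control probe sets were left out. Symbols come from the platform annotation: 34945 probe sets have 1 symbol, 932 several and 9160 none listed. Genes were summarised by the median over probe sets with 1 symbol.

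The limma package (3.58.1, in R 4.3.3) fitted a mean for each group to the 11 arrays with empirical Bayes, leaving 7 residual degrees of freedom, with Benjamini-Hochberg adjustment within each of 7 comparisons. Differences between responses of members or probe sets were added after the data had been seen and used an exact permutation of culture labels within strain, and an alternative that swapped labels within same-numbered arrays and left out unpaired unstimulated NOD array 3 (Python 3.11.15, adjusted with SciPy 1.17.1). The 7 genes, the 5 pathway lists and the 7 marker lists were chosen with earlier results of these data known. Named genes are all members, the called genes of each list up to 6 (or the 2 with the smallest p) and the 5 genes most like each called member. Among the latter, predicted genes and clones were passed over by their names. Cd5 and the printed promoters were named after their values were seen. Alternatives were the replicate number as a block, quantile normalization, the lowest-numbered probe set of a gene and each array left out. Quantile normalization was run on the deposited values, which were already processed and centred. It makes the distribution of these centred values alike on all arrays and is not a normalization of raw intensities. A filter on dim probes could not be applied to centred values.

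Pairing was checked by correlating deviations from the group means of arrays with the same number. Per the labels, the cultures of a strain came from the same lots, but not that a number marks a lot. The correlations were 0.33, 0.22 and 0.47 between NR4 cultures and 0.59, 0.21 and 0.51 between unstimulated NOD and NR4 arrays, all over the limit of 0.1. For the NOD cultures there are 2 pairs, with 0.63 and 0.12. The remaining same-numbered pairs were over the limit except those of stimulated NR4 array 2, with -0.12 to stimulated NOD array 2 and 0.06 to unstimulated NOD array 2. The main limma fit did not use this pairing, which enters only in the alternative with the replicate number as a block. With that block Nfatc1 and Ppp3ca kept their calls in the averaged response. In simulated data with 200 of 18193 genes changed in the averaged response, limma recovered 34% of changes of 0.5 log2 units, 88% of 1 and 99% of 2. False calls numbered 2, 14 and 11. The simulated noise was normal and independent between arrays, unlike the correlated arrays here, so these shares may not hold for them.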

Additional observations from a re-analysis of the deposited data

How the results depend on the processing

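Of 686 values of the 7 genes recomputed under an alternative, 665 kept their side of the threshold. Of the rest, 20 lost the call (11 of Nfatc1 in NR4 and 9 of Ppp3ca in the averaged response), 1 gained it and 0 reversed a call. Of 2639 values of the 29 probe sets, 2586 kept their side of the threshold and 53 lost the call. Among the values that kept their side, those not called in either setting changed sign 50 times for genes and 211 times for probe sets.

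With the replicate number as a block, the genes called were 558 instead of 283 in the averaged response, 52 instead of 21 in NOD, 229 instead of 75 in NR4 and 37 instead of 22 in the averaged strain difference, and the probe sets were 797 instead of 456 in the averaged response and 222 instead of 75 in NR4. The block gave 2 members instead of 1 in NR4 (Ppp3ca added) and changed no other member's call at the gene level. In the list of calcium release and entry it gave 1 gene (the calcium pump Atp2b4) instead of 0. Quantile normalization gave 9 genes instead of 21 and 7 probe sets instead of 20 in NOD, 16 genes instead of 75 and 8 probe sets instead of 75 in NR4, 0 instead of 1 member probe set in NOD, and in NR4 0 members instead of 1 (Nfatc1 at 0.73, limma adjusted p = 0.16) and 0 member probe sets instead of 2. With the lowest-numbered probe set of a gene, 0 instead of 1 member was called in NR4 and 0 instead of 1 NFAT5 target.

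With single arrays left out, the averaged response gave 76 to 273 genes, 69 to 389 probe sets, 1 to 2 members, 2 to 4 member probe sets, 1 to 2 kinase and transport genes, 5 to 7 NFAT targets and 1 to 1 NFAT5 target. In NOD there were 0 to 25 genes, 0 to 10 probe sets, 0 to 0 members and 0 to 0 member probe sets. In NR4 there were 21 to 50 genes, 6 to 57 probe sets, 0 to 1 members and 0 to 2 member probe sets. The averaged strain difference gave 12 to 21 genes and 26 to 40 probe sets, unstimulated cells 8 to 11 and 14 to 24, and anti-IgM cells 4 to 10 and 8 to 18, with 0 to 0 members in each. Fewer arrays enter these fits, and the cause of the changes under the other settings was not tested.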
